A study of Mus musculus with 18 samples.

Results

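The genes described are 42 genes of the cell cycle and DNA replication, out of 35869 gene symbols measured in every library. They were listed by name (cyclins and a cyclin-dependent kinase inhibitor, replication licensing and nucleotide synthesis genes, mitotic kinases, kinetochore and spindle genes, and a few chromatin genes expressed in dividing cells). The list was chosen with earlier results of these data known. All 42 symbols were found. Mouse brain was dissociated with enzymes in the presence of inhibitors, microglia and astrocytes were sorted from it, and their RNA was sequenced. KO mice were Cx3cr1CreERT2-Tgfb1fl/fl, in which tamoxifen lets Cre excise the floxed Tgfb1 (encoding the cytokine TGF-beta1), and control mice carried Cx3cr1CreERT2 alone. All were C57BL/6 animals given 5 oral gavages of tamoxifen at 180 mg/kg, and their ages are not given in the sources used here. The libraries are KO microglia (n = 4, animals 1 to 4), control microglia (n = 4, animals 1, 2, 4 and 5), KO astrocytes (n = 4, animals 1 to 4) and control astrocytes (n = 5, animals 1 to 5). The labels number the mice within each genotype, so each library of a group is a separate mouse. CreERT2 in this line is made by Cx3cr1-expressing cells, which include microglia and other macrophages, and both genotypes carry it.

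The cell cycle is driven by cyclin-dependent kinases whose cyclin partners appear in turn: D and E cyclins before DNA replication, A cyclin during it and B cyclins in mitosis. Genes for replication are largely transcribed before S phase under E2F factors, and genes for mitosis in G2 under MuvB complexes that bind a short element called CHR, often with CCAAT boxes beside it. In resting cells the DREAM complex, a MuvB complex with E2F4, holds many of these genes low, and Cdkn1a (p21), an inhibitor of cyclin-dependent kinases, favours that state. Microglia in the healthy adult brain divide rarely and renew themselves in place, and TGF-beta is known to slow the division of many cell types.

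The promoters that follow are shown because 3 elements of this circuit can be read in them. Each is the stretch of 120 bases before the start site of the gene, from RefSeq on GRCm38.p6, printed on the strand of the gene, with the matched words in capitals. The CHR word was TTTGAA, with the spelling TTCGAA also accepted. The CCAAT box was searched as those letters, and E2F words were TTTCCCGC, TTTGCCGC, TTTCGCGC and TTTGGCGC. Each was searched on both strands, so that ATTGG in a stretch is the CCAAT box of the other strand, while TTCAAA is the CHR word of that strand. At one place in Mcm6 a pair of E2F words, one on each strand, overlap. Cdk1, Cdc20, Ube2c and Top2a are genes of G2 and mitosis, and Mcm6 and Mcm3 encode subunits of the replicative helicase.
Cdk1 (chr10:69352913-69353032, minus strand): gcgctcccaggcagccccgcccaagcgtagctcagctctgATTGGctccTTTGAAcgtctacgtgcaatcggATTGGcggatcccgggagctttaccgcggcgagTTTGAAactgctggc
Cdc20 (chr4:118437344-118437463, minus strand): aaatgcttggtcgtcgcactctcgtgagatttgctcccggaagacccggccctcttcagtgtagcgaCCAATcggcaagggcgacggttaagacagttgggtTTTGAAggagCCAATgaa
Ube2c (chr2:164769809-164769928, plus strand): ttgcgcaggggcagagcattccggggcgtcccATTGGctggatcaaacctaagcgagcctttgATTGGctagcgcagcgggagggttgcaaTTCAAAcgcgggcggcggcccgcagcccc
Top2a (chr11:99024190-99024309, minus strand): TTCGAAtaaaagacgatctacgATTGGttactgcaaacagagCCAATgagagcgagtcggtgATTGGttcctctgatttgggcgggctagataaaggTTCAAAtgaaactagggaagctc
Mcm6 (chr1:128359706-128359825, minus strand): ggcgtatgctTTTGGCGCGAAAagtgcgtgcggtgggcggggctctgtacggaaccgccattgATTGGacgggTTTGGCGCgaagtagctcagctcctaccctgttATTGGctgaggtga
Mcm3 (chr1:20820313-20820432, minus strand): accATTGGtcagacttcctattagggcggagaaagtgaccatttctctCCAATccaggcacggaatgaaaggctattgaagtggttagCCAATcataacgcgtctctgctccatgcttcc

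Windows of 250 bases before to 50 after the start were found for 32 of the 42 genes. A CHR word was present in 16 of the 20 G2 and mitosis genes with a window, in 2 of the 12 G1 and replication genes (Mcm2 and Mcm7), and in 21.7% of all 27025 genes with a window. In 15 of those 16 genes, with the chromatin gene Hmgb2 counted among them, a CHR word began within 50 bases of the start. The share of all genes with a CHR word that close was not counted. CCAAT was present in 26 of the 32 genes against 41.1% of all genes, and an E2F word in 5 (Mcm3, Mcm5, Mcm6, Mcm7 and Cdk1) against 2.61%. Among the genes with a window, CHR stood in 15 of the 24 that rose in KO microglia and in 3 of the 8 that did not pass there. Those 2 counts mix the roles, since 16 of the 18 genes with CHR are genes of G2 and mitosis. A link between CHR and the rise was not tested. The E2F words of Mcm3 lie after its start and so outside the stretch printed. Words of different kinds overlapped in 1 gene, Mcm7. These matches describe the letters of the windows and are not evidence of binding.

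**Figure D1:**
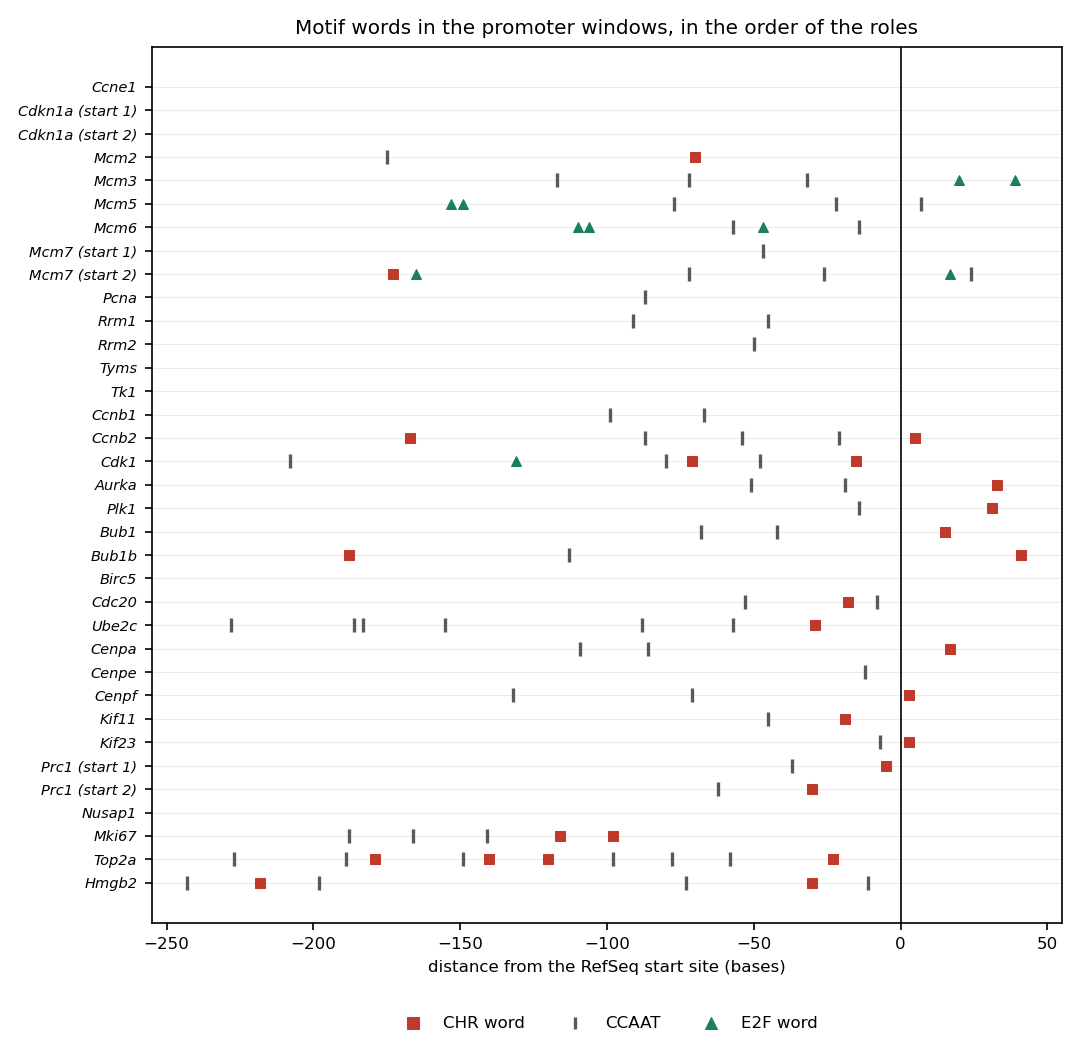
Positions of the 3 kinds of word in the promoter windows of the cell cycle genes, as distance in bases from the RefSeq start site (vertical line), with 1 row per start site in the order of the roles and genes with more than 1 start site on several rows. Squares are CHR words, bars CCAAT and triangles E2F words. CHR words of 15 G2 and mitosis genes, Hmgb2 included, begin within 50 bases of the start, and E2F words lie in 4 helicase genes and Cdk1.

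Each library gives TPM values, a share of transcripts scaled by transcript length to a fixed sum, with 1 decimal. The read depth behind them is unknown, so no counting interval can be given. Differences are of log2(TPM + 1), which understates changes of genes near 1 TPM, and KO minus control unless stated. They were tested with limma, two-sided, with Benjamini-Hochberg adjustment over every gene that 4 or more of the compared libraries held at 1 TPM or above, and adjusted p under 0.05 was the threshold. Tgfb1 itself, a check of the labels, was at 1.8, 1.3, 1.7 and 2.0 TPM in KO microglia, against 3.4, 2.9, 2.9 and 2.8 TPM in control microglia. Xist RNA, made from the inactive X chromosome, was present in all KO libraries and in control animals 1 and 2, whereas control animals 3, 4 and 5 had Y-linked Ddx3y RNA in its place, so results are also given against each kind of control. Genes at 1 TPM or more numbered 12903 to 13127 in KO microglia and 12456 to 12849 in control microglia. In bulk RNA, fewer cells of a type and less RNA per cell cannot be told apart, and the same holds for more dividing cells and more RNA in each.

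Marker lists were summed in each library to see what else the sorts held. The 11 microglial markers summed to 10657.2 to 11634.4 TPM in KO microglia, against 43907.8 to 47319.5 TPM in control microglia, with none under 1 TPM in either. The 8 markers of border-associated macrophages summed to 5605.0 to 6331.5 TPM in KO microglia, against 388.5 to 726.1 TPM in control microglia. Of the 8, Pf4, Mrc1, Ms4a7 and Clec4n were higher in every KO library than in any control library, Cbr2 was lower (38.0 to 43.3 TPM in KO and 50.2 to 81.9 TPM in control microglia), and Lyve1, Cd163 and F13a1 overlapped. The 6 monocyte markers summed to 26.4 to 29.5 TPM in KO microglia, against 6.0 to 11.3 TPM in control microglia, and most of the KO sum was Itga4, at 22.5 to 28.4 TPM in KO and 0.2 to 1.6 TPM in control microglia. The defining monocyte gene Ccr2 was at 0.9 to 4.0 TPM in KO and 4.4 to 8.5 TPM in control microglia, and Plac8 was listed at 0 in every KO microglia library. The part of these macrophage markers in the results that follow was not tested. The 8 neural progenitor markers summed to at most 1.9 TPM in KO and 1.7 TPM in control microglia, and the 8 oligodendrocyte precursor markers to at most 3.7 TPM in KO and 0.8 TPM in control microglia. Neutrophil markers summed to 9.5 to 11.5 TPM in KO and 28.1 to 57.2 TPM in control microglia, mostly Csf3r, and lymphocyte markers to 3.6 to 7.8 TPM in KO and 26.1 to 65.1 TPM in control microglia, where most was Il7r. The T cell gene Cd3g was at 0.8, 1.0, 3.1 and 5.6 TPM in KO microglia and at most 0.1 TPM in control microglia. The 8 neuron markers summed to 12.8 to 55.4 TPM in KO and 4.0 to 11.1 TPM in control microglia, without overlap. Their sum was highest in KO animal 2, with Snap25 at 29.3 TPM and Tubb3 at 15.6 TPM. Endothelial markers summed to 3.6 to 32.6 TPM in KO and 9.8 to 33.1 TPM in control microglia, mural and fibroblast-like markers to 16.7 to 76.8 TPM in KO and 8.0 to 103.2 TPM in control microglia, and erythroid markers to 0.8 to 563.1 TPM in KO and 0.4 to 328.6 TPM in control microglia. The 12 astrocyte markers summed to 87.3 to 111.9 TPM in KO and 302.0 to 640.9 TPM in control microglia, without overlap. Most of the control sum was Slc1a3, at 33.8 to 39.3 TPM in KO and 274.9 to 608.3 TPM in control microglia. Aldoc went the other way, at 24.1 to 36.4 TPM in KO and 8.7 to 16.9 TPM in control microglia. The 9 oligodendrocyte markers summed to 70.5 to 107.5 TPM in KO and 62.9 to 139.4 TPM in control microglia. The part of these cell types in the results was not tested.

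In microglia most of these genes were higher in KO animals. Of the 42, all of which were tested, 31 rose, 0 fell and 11 did not pass, where 14.2% of all 13054 genes tested rose and 14.2% fell. The median difference of the 42 was 1.13 on the log2 scale, against 0.004 for all genes. In 26 of the 42 the lowest KO microglia library lay above the highest control microglia library, as it did in 14.8% of all genes tested, and no member showed the opposite. Bub1, Prc1 and Mki67 passed the filter through KO libraries alone; 28 of the 39 others rose, and with no filter 25 of the 42 rose. Against control animals 1 and 2 alone 21 members rose, and against animals 4 and 5 alone 32 did. In microglia, KO animal 2 had the highest value of its group in 28 of the 42 genes, and KO animal 3 the lowest in 18.

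**Figure D2:**
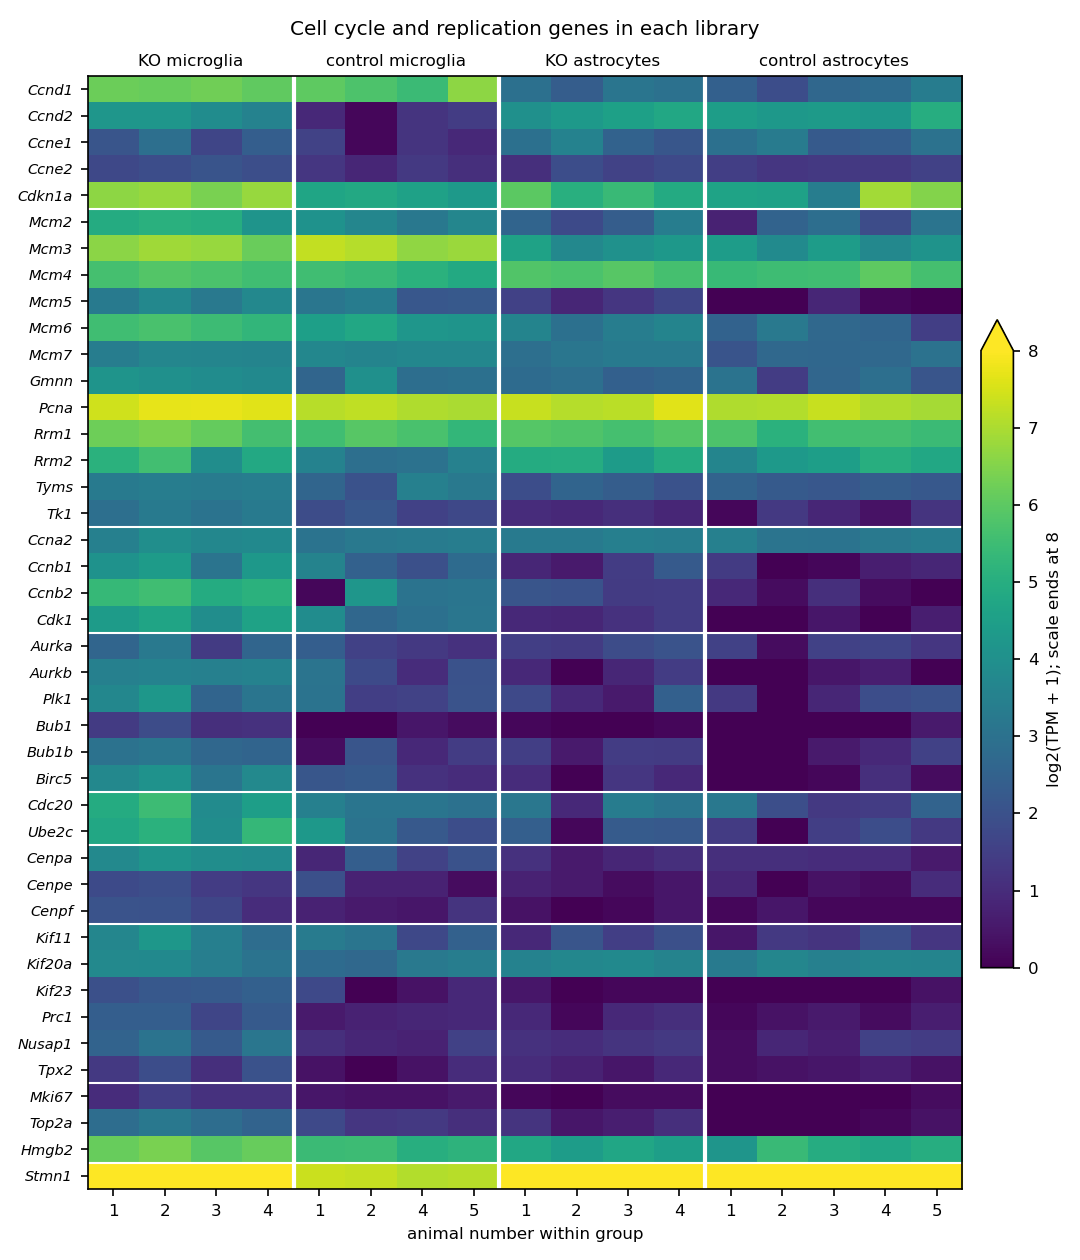
Heat map of log2(TPM + 1) of the 42 genes (rows, in the order of their roles, with white lines between roles) in the 17 libraries (columns, numbered by animal). KO microglia stand at the left, then control microglia, KO astrocytes and control astrocytes. Most rows are brightest in KO microglia. By mean TPM, Ccnd2, Ccne1, Mcm4, Kif20a and Stmn1 are higher in KO astrocytes than in KO microglia, and Mcm3 and Mcm7 are highest in control microglia.

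Among the regulators of G1, Ccnd2, which encodes cyclin D2, showed the largest difference of the 42 genes. It was at 17.3, 17.3, 13.7 and 10.8 TPM in KO microglia, against 0.9, 0.1, 1.3 and 1.7 TPM in control microglia. The groups did not overlap, and the log2 difference was 3.03 (SE 0.29, limma adjusted p = 4.6e-05). Ccnd1, which encodes cyclin D1, was far more abundant and did not pass: it was at 72.3, 68.8, 75.9 and 65.5 TPM in KO microglia, against 64.4, 53.1, 42.8 and 98.4 TPM in control microglia. Its control values spread on both sides of the KO values, and the difference of 0.19 had a 95% interval of -0.30 to 0.69. Cdkn1a, which encodes the kinase inhibitor p21, was at 98.3, 108.5, 83.2 and 108.4 TPM in KO microglia, against 24.8, 27.4, 23.0 and 19.0 TPM in control microglia. All 4 KO values were more than 3 times the highest control value, and the log2 difference was 2.04 (SE 0.14, limma adjusted p = 5.5e-06). The E cyclin genes, which act at entry into S phase, were low: Ccne2 was at 2.3 to 3.2 TPM in KO and 0.8 to 1.5 TPM in control microglia and rose by 0.78 (adjusted p = 0.00931), and Ccne1 was at 2.2 to 6.5 TPM in KO and 0.1 to 2.0 TPM in control microglia (1.30, adjusted p = 0.0207). The call for Ccne1 ended without KO animal 2 or KO animal 4, with an adjusted p of up to 0.0590, and against control animals 1 and 2 alone (adjusted p = 0.0679).

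The 6 subunits of the MCM helicase, which unwinds DNA at the replication fork, did not move alike. Mcm6 was at 45.4, 51.5, 43.7 and 37.8 TPM in KO microglia, against 22.0, 26.8, 17.4 and 16.8 TPM in control microglia, without overlap (log2 difference 1.08, SE 0.17, limma adjusted p = 0.00102). Mcm2 was at 29.2, 32.7, 30.7 and 16.7 TPM in KO microglia, against 15.8, 11.7, 8.3 and 11.8 TPM in control microglia (1.12, SE 0.24, adjusted p = 0.00722). Against control animals 1 and 2 alone Mcm2 did not pass (0.91, adjusted p = 0.0551). Mcm3, the most abundant subunit, was at 97.5, 114.0, 106.9 and 71.0 TPM in KO microglia, against 151.7, 137.5, 101.3 and 111.4 TPM in control microglia, and so had its 2 highest values in controls. The groups overlapped and Mcm3 did not pass (-0.37, 95% interval -0.76 to 0.03, adjusted p = 0.160). Mcm7 was at 9.5 to 11.7 TPM in KO microglia and 11.3 to 12.1 TPM in control microglia, with a difference of -0.10 and an interval of -0.39 to 0.18. For Mcm4 (0.46, adjusted p = 0.0603) and Mcm5 (0.77, adjusted p = 0.0831) the outcome depended on the controls, since against control animals 4 and 5 alone they passed (0.71 and 1.30, adjusted p = 0.00665 and 0.00275) and against animals 1 and 2 alone they did not (0.21 and 0.25). Mcm4 also passed without control animal 1 (adjusted p = 0.0255) and Mcm5 without control animal 2 (adjusted p = 0.0259).

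**Figure D3:**
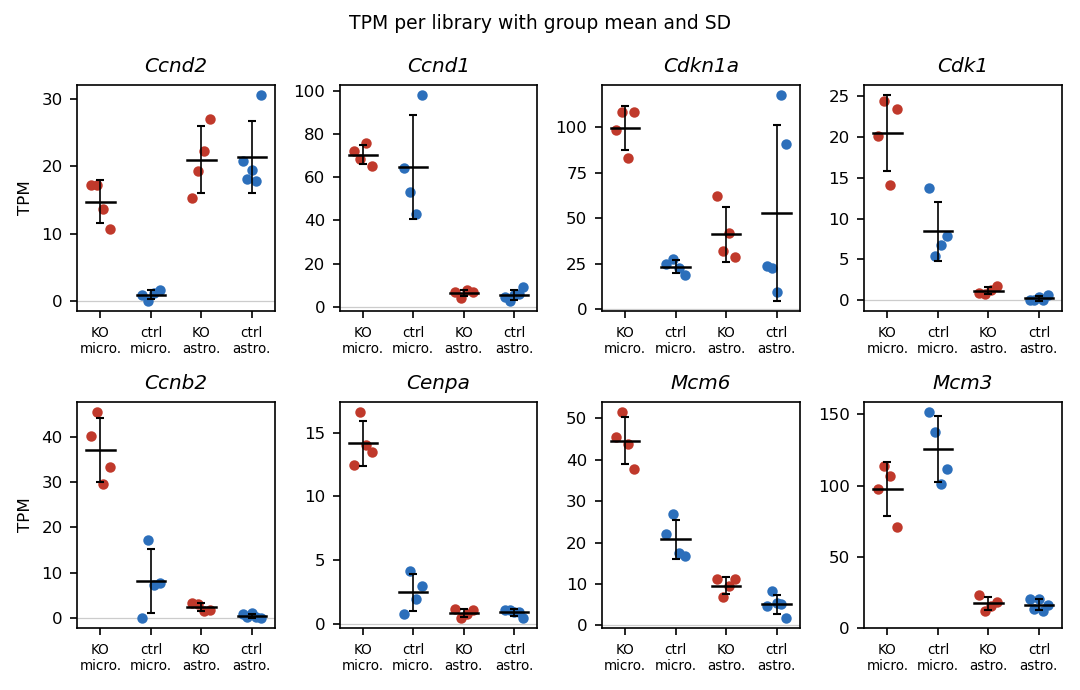
TPM of 8 genes in every library (points), with the mean (line) and SD (bar) of each group; red is KO and blue control, and microglia stand left of astrocytes. Ccnd2, Cdkn1a, Cdk1, Ccnb2, Cenpa and Mcm6 lie higher in KO than in control microglia without overlap, Ccnd1 and Mcm3 overlap, and Ccnd2 in KO microglia approaches the level of astrocytes.

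The other genes of replication differed in size of change. Pcna, which encodes the sliding clamp of DNA polymerases, was the most abundant of them at 171.7, 209.6, 212.6 and 196.9 TPM in KO microglia, against 139.7, 150.1, 131.9 and 125.2 TPM in control microglia. The groups did not overlap although the difference was small (log2 difference 0.53, SE 0.10, limma adjusted p = 0.00335). Of the subunits of ribonucleotide reductase, which makes deoxynucleotides, the regulated subunit gene Rrm2 was at 33.7, 46.5, 14.0 and 27.4 TPM in KO microglia, against 10.8, 6.5, 7.0 and 10.5 TPM in control microglia (1.61, SE 0.33, adjusted p = 0.00532). Rrm1, the large subunit gene, was at 47.9 to 82.7 TPM in KO and 38.2 to 60.2 TPM in control microglia and did not pass (0.47, adjusted p = 0.102), except without KO animal 4 (adjusted p = 0.0251). Tk1, a thymidine kinase of S phase, rose by 1.31 (SE 0.19, adjusted p = 0.000622), with 6.6 to 8.9 TPM in KO microglia and 1.9 to 3.5 TPM in control microglia. Tyms, the thymidylate synthase gene, did not pass (0.51, adjusted p = 0.242): KO values of 8.9 to 9.6 TPM lay within the control range of 3.0 to 10.3 TPM. Against control animals 1 and 2 alone it passed (1.05, adjusted p = 0.0124), whereas against animals 4 and 5 the difference was -0.020. Gmnn, which encodes geminin, a brake on repeated licensing, averaged 14.7 ± 1.58 TPM in KO microglia (SD, n = 4) and was at 5.1, 15.1, 6.4 and 6.8 TPM in control microglia, of which animal 2 reached the KO range. Its call (0.85, adjusted p = 0.0470) ended in 7 of the 8 fits without 1 library, with an adjusted p of up to 0.117, and held without control animal 2 (adjusted p = 0.000857). Against control animals 1 and 2 alone Gmnn did not pass (limma adjusted p = 0.230).

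All 4 genes of the S, G2 and mitotic kinase complexes rose. Cdk1, the kinase that drives entry into mitosis, was at 20.1, 24.4, 14.1 and 23.5 TPM in KO microglia, against 13.7, 5.4, 6.7 and 7.9 TPM in control microglia. The lowest KO library stood just above the highest control library, and the log2 difference was 1.24 (SE 0.27, limma adjusted p = 0.00760; 0.0593 against control animals 1 and 2 alone). Ccnb2, which encodes cyclin B2, a partner of Cdk1, was at 40.2, 45.4, 29.6 and 33.2 TPM in KO microglia, against 0.1, 17.3, 7.3 and 7.7 TPM in control microglia. The groups were well apart, but control animals 1 and 2 stood at the 2 ends of their group, and the difference of 2.61 had an SE of 0.71 (adjusted p = 0.0222). Its call ended without KO animal 1, 2 or 4, with an adjusted p of up to 0.0581. Ccnb1, the other B cyclin gene, was at 7.5 to 19.8 TPM in KO and 2.9 to 10.9 TPM in control microglia (1.25, adjusted p = 0.0346), and its call ended without KO animal 1, 2 or 4 or control animal 2, 4 or 5 (up to 0.0945). Ccna2, which encodes cyclin A2, was at 10.3 to 14.6 TPM in KO and 7.3 to 9.6 TPM in control microglia. Its difference was small (0.48, adjusted p = 0.0429), and its call ended in 7 of the 8 fits without 1 library (up to 0.127). Ccna2 passed against neither kind of control alone (limma adjusted p = 0.0698 for animals 1 and 2, 0.151 for animals 4 and 5). Ccnb1 did not pass against control animals 1 and 2 alone (0.168).

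Of the mitotic kinase, checkpoint and chromosomal passenger genes, 5 of 6 rose. Birc5, which encodes survivin of the passenger complex, was at 12.3, 16.0, 7.7 and 12.7 TPM in KO microglia, against 3.4, 3.8, 1.2 and 1.0 TPM in control microglia, without overlap (log2 difference 2.05, SE 0.34, limma adjusted p = 0.00148). Aurkb, the kinase of the same complex, was nearly even over the KO animals at 10.2, 10.8, 10.3 and 10.6 TPM and uneven over the controls at 7.4, 2.5, 1.0 and 3.0 TPM (1.55, adjusted p = 0.0109; 0.0509 against control animals 1 and 2 alone). Bub1b, a checkpoint kinase gene, was at 5.0 to 7.8 TPM in KO and 0.2 to 3.3 TPM in control microglia (1.67, adjusted p = 0.00664). Bub1, another, was at 1.1 to 2.6 TPM in KO microglia and at most 0.4 TPM in control microglia (1.17, adjusted p = 0.00351), and was below the filter when any KO library was left out. Plk1, a kinase of mitotic entry and exit, was at 5.0 to 17.7 TPM in KO and 1.8 to 7.2 TPM in control microglia, with overlap. Its call (1.37, adjusted p = 0.0374) ended without KO animal 1, 2 or 4 or control animal 2, 4 or 5 (up to 0.0993). Plk1 did not pass against control animals 1 and 2 alone (limma adjusted p = 0.178). Aurka, a centrosomal kinase, was at 1.6 to 8.5 TPM in KO and 1.2 to 4.3 TPM in control microglia and did not pass (0.86, adjusted p = 0.156), except when KO animal 3, its lowest KO library, was left out.

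Both genes of the anaphase-promoting complex pathway, which destroys B cyclins at the end of mitosis, rose. Cdc20, its activator, was at 29.6, 43.5, 13.6 and 21.4 TPM in KO microglia, against 10.3, 7.6, 7.7 and 6.9 TPM in control microglia (log2 difference 1.51, SE 0.31, limma adjusted p = 0.00492). Ube2c, its ubiquitin-conjugating enzyme, was at 26.6, 33.4, 14.2 and 38.8 TPM in KO microglia, against 18.1, 7.2, 3.7 and 2.7 TPM in control microglia. Here KO animal 3 lay below control animal 1, and the difference of 1.93 (SE 0.50, adjusted p = 0.0171) did not pass without KO animal 4 (adjusted p = 0.0534) or against control animals 1 and 2 alone (1.14, adjusted p = 0.113).

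At the centromere, Cenpa, the histone H3 variant that marks it, was at 12.5, 16.6, 14.0 and 13.5 TPM in KO microglia, against 0.8, 4.2, 2.0 and 3.0 TPM in control microglia. The lowest KO value was about 3 times the highest control value, and the log2 difference was 2.21 (SE 0.30, limma adjusted p = 0.000462). Cenpf, a kinetochore protein gene, was at 1.0 to 3.1 TPM in KO and 0.4 to 1.3 TPM in control microglia (0.92, adjusted p = 0.0315), and its call ended without KO animal 1, 2 or 3 or control animal 1, 2 or 4 (up to 0.0949). Cenpf passed against neither kind of control alone (limma adjusted p = 0.0623 for animals 1 and 2, 0.110 for animals 4 and 5). Cenpe, a kinetochore motor gene, was at 1.4 to 2.8 TPM in KO microglia and 2.9, 0.7, 0.7 and 0.2 TPM in control microglia. It did not pass (0.67, adjusted p = 0.192), except when control animal 1, its highest control library, was left out, or against control animals 4 and 5 alone. The difference was 1.09 against animals 4 and 5 alone (adjusted p = 0.016) and 0.24 against animals 1 and 2 alone (adjusted p = 0.684).

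Of the 6 spindle and cytokinesis genes, 4 rose. Nusap1, which bundles spindle microtubules, was at 4.9, 7.3, 3.8 and 7.9 TPM in KO microglia, against 1.1, 0.8, 0.7 and 1.9 TPM in control microglia, without overlap (log2 difference 1.70, SE 0.26, limma adjusted p = 0.000942). Prc1, which crosslinks microtubules of the central spindle, was at 2.2 to 4.2 TPM in KO and 0.5 to 0.9 TPM in control microglia (1.39, adjusted p = 0.000770). Kif23, a motor of cytokinesis, was at 2.9 to 4.5 TPM in KO and 0.0 to 2.4 TPM in control microglia (1.45, adjusted p = 0.0118), and Tpx2, a spindle assembly factor, at 1.1 to 3.0 TPM in KO and 0.0 to 1.0 TPM in control microglia (1.13, adjusted p = 0.0149). Against control animals 1 and 2 alone Kif23 did not pass (adjusted p = 0.0704), and against animals 4 and 5 alone Tpx2 did not (adjusted p = 0.0769). The motor genes Kif11 (0.89, adjusted p = 0.121) and Kif20a (0.48, adjusted p = 0.156) overlapped between groups, at 6.3 to 17.8 and 7.3 to 12.9 TPM in KO microglia, against 2.3 to 9.1 and 5.5 to 9.4 TPM in control microglia. Against control animals 4 and 5 alone Kif11 passed (1.45, adjusted p = 0.0229), and against animals 1 and 2 alone it did not (0.33, adjusted p = 0.545).

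The chromatin genes rose at very different levels. Mki67, the gene of the proliferation marker Ki-67, was near the resolution of the files, at 1.0, 1.8, 1.2 and 1.2 TPM in KO microglia and 0.4, 0.3, 0.3 and 0.5 TPM in control microglia (log2 difference 0.73, SE 0.17, limma adjusted p = 0.0109). With quantile normalization it did not pass, and it was below the filter when any KO library was left out. Top2a, which encodes topoisomerase II alpha, was at 6.3, 8.2, 6.3 and 4.8 TPM in KO microglia, against 2.4, 1.4, 1.5 and 1.1 TPM in control microglia (1.51, SE 0.21, adjusted p = 0.000571). Hmgb2, a chromatin protein gene high in dividing cells, was at 69.2, 83.7, 59.2 and 69.2 TPM in KO microglia, against 43.0, 43.8, 31.5 and 34.9 TPM in control microglia (0.86, adjusted p = 0.00182). Stmn1, which encodes the microtubule destabiliser stathmin, was the most abundant of the 42 genes at 322.6, 390.5, 254.3 and 349.7 TPM in KO microglia, against 162.1, 156.8, 133.5 and 141.2 TPM in control microglia (1.13, SE 0.13, adjusted p = 0.000196). In none of these 4 genes did the groups overlap. Summed over the 24 genes of the mitotic roles, KO microglia had 323.5, 409.1, 237.1 and 314.2 TPM, against 152.4, 129.4, 93.6 and 110.7 TPM in control microglia.

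Of the 31 calls, 20 held in each of the 8 fits without 1 library, 3 (Bub1, Prc1 and Mki67) held in the fits that tested them, and 8 ended in at least 1. In every alternative that tested them, control subsets included, 13 of those 20 held (Ccnd2, Cdkn1a, Mcm6, Rrm2, Tk1, Bub1b, Birc5, Cdc20, Cenpa, Nusap1, Top2a, Hmgb2 and Stmn1). Of these, Nusap1 and Top2a were not tested with the filter at 5 TPM.

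**Figure D4:**
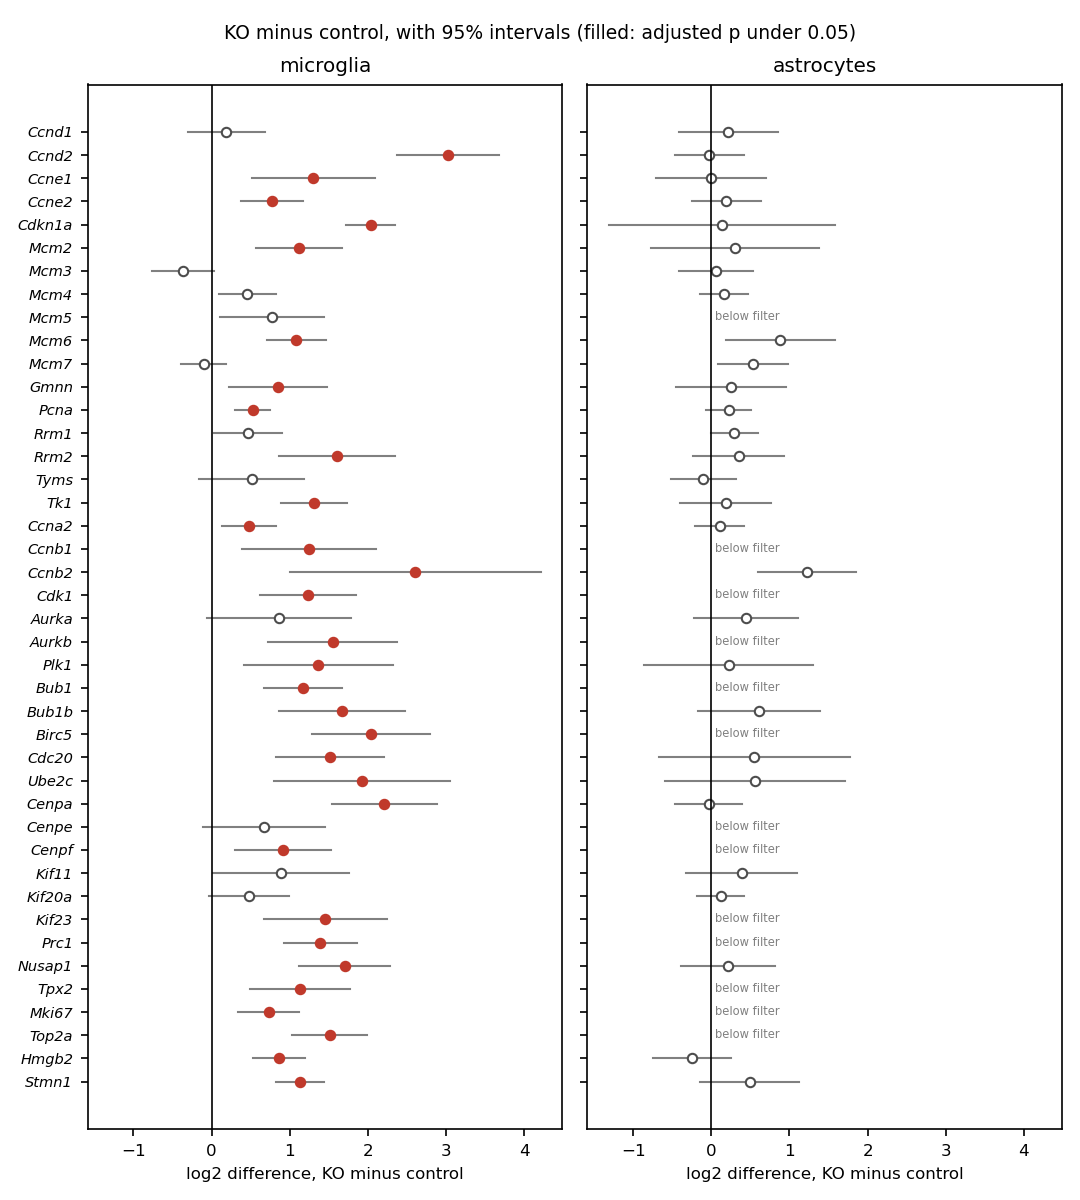
Differences of log2(TPM + 1), KO minus control, of the 42 genes in microglia (left) and astrocytes (right), with 95% intervals from limma; filled points have an adjusted p under 0.05, and genes below the filter are marked. In microglia 31 points are filled, all above 0, and in astrocytes 0 of 29.

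Related genes outside the 42 were read from lists of the same pathway, with p adjusted over all genes tested, of which 14.2% rose and 14.2% fell. These lists too were chosen with earlier results of these data known. Of 35 tested genes in a list of other G2 and mitosis genes 23 rose and 0 fell in KO microglia, with a median log2 difference of 1.02. Without 5 genes that reached 1 TPM in KO libraries alone (Foxm1, Kif20b, Racgap1, Troap and Gtse1), 18 of 30 rose. They included Cks1b, a cofactor of cyclin-dependent kinases, at 57.1 ± 4.93 TPM in KO and 24.8 ± 2.66 TPM in control microglia (SD, n = 4 each; 1.17), and the passenger complex scaffold gene Incenp (1.64), the condensin gene Smc4 (1.58) and Gtse1 (1.72). Of 34 genes of origins, polymerases and the fork 14 rose and 1 fell (median 0.49). The primase gene Prim1 was at 44.9 ± 6.04 TPM in KO and 13.7 ± 4.21 TPM in control microglia (SD, n = 4 each; 1.68, limma adjusted p = 0.000239), the polymerase genes Pola1 and Pold1 rose by 1.84 and 0.93, and the clamp loader gene Rfc5 by 1.06. The gene that fell was that of the origin recognition subunit Orc4 (-0.50), named after its value was seen. Its call (adjusted p = 0.0265) ended without KO animal 1, 3 or 4 or control animal 4 (up to 0.0818), and against either kind of control alone.

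Among regulators of the step from G1 to S, 6 of 19 tested genes rose and 2 fell in KO microglia, with a median of 0.25, against 0.004 for all genes. E2f1, an activator of replication genes, averaged 10.6 ± 1.31 TPM in KO microglia (SD, n = 4), against 0.6, 0.0, 1.3 and 2.0 TPM in control microglia (log2 difference 2.67, SE 0.32, limma adjusted p = 0.000184). The lowest KO library stood at 9.2 TPM and the highest control library at 2.0 TPM. Skp2, which marks the inhibitor p27 for destruction, rose by 1.33, while the brakes Cdkn2b, a kinase inhibitor gene, and Rb1, the retinoblastoma gene, rose by 1.11 and 0.99. The 2 genes that fell were the activators E2f2 (-1.04) and E2f3 (-1.30), named here after their values were seen. E2f2 reached 1 TPM in control libraries alone, and E2f3 did not pass against control animals 1 and 2 alone (-0.82, adjusted p = 0.0898). Of 7 DREAM and MuvB genes, 1 rose, a share close to the 14.2% of all genes, and 2 fell (median -0.20): the repressor E2f5 rose by 0.54 (adjusted p = 0.0176), the repressor E2f4 fell by 0.70 (0.0227) and the histone-binding Rbbp4 fell by 0.35 (0.0390). None of these 3 calls held in all fits without 1 library, where the adjusted p reached 0.0569 for E2f5, 0.0689 for E2f4 and 0.0923 for Rbbp4. The call of E2f4 ended without KO animal 1 or 2 or control animal 1 or 4, and that of E2f5 without KO animal 1 or control animal 5. That of Rbbp4 ended without KO animal 1, 3 or 4 or control animal 1, 2 or 4. Against control animals 1 and 2 alone none of the 3 passed. Against control animals 4 and 5 alone E2f4 and Rbbp4 did not pass.

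Cdkn1a is a well-known target of the tumour suppressor p53, and of 16 other tested p53 targets 4 rose and 0 fell in KO microglia (median 0.29), where 14.2% of all genes rose and 14.2% fell. Plk2, a kinase gene, was at 73.1, 98.4, 102.9 and 64.8 TPM in KO microglia, against 1.3, 3.6, 10.3 and 8.7 TPM in control microglia (log2 difference 3.85, SE 0.45, limma adjusted p = 0.000183). Pmaip1, which encodes the death factor Noxa, was at 118 ± 12.9 TPM in KO and 33.7 ± 8.99 TPM in control microglia (SD, n = 4 each; 1.80). Phlda3 rose by 1.88 (adjusted p = 0.0102) at low levels, with 3.1 TPM in KO animal 2 and in control animal 1, and did not pass against control animals 1 and 2 alone. Bax, a death effector gene, rose by 0.54 (adjusted p = 0.0170), a call that ended without KO animal 1 or 4 (up to 0.0503). Against control animals 1 and 2 alone Bax did not pass either.

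**Figure D5:**
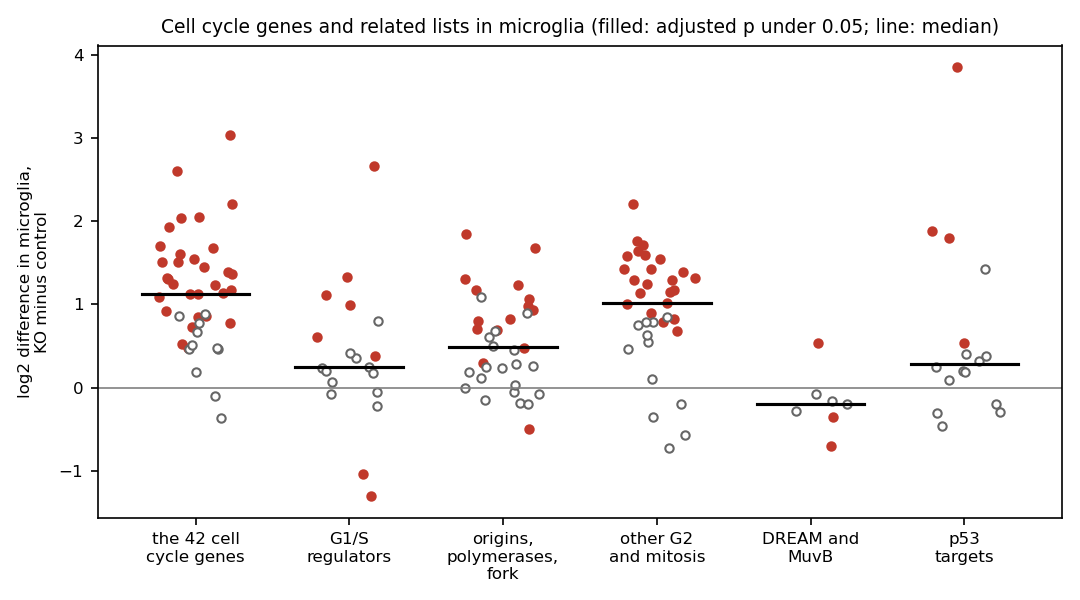
Differences of log2(TPM + 1) in microglia, KO minus control, for the 42 genes and 5 related lists (points, spread sideways for legibility); filled points have an adjusted p under 0.05 and lines are medians. The 42 genes and the other G2 and mitosis genes have medians of 1.13 and 1.02, the DREAM and MuvB list -0.20.

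In astrocytes 0 of the 29 tested genes passed, where 0.00657% of all 15231 genes tested did in either direction. At an unadjusted p under 0.05 limma found 3 of the 29 and 1939 of all genes. The median difference of the 29 was 0.22, against 0.07 for all genes. Ccnb2 was at 3.3, 3.0, 1.6 and 1.7 TPM in KO astrocytes, against 0.9, 0.2, 1.1, 0.2 and 0.0 TPM in control astrocytes (log2 difference 1.22, SE 0.28, limma adjusted p = 0.248). Mcm6 was at 11.1, 6.8, 9.5 and 11.1 TPM in KO astrocytes, against 4.7, 8.4, 5.5, 5.1 and 1.8 TPM in control astrocytes (0.88, adjusted p = 0.338). Ccnb2 did not overlap between groups and Mcm6 did. Mcm7 had a difference of 0.53 (adjusted p = 0.347), with 6.5 to 8.9 TPM in KO and 3.2 to 7.1 TPM in control astrocytes.

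The genes with the largest changes in microglia had other values in astrocytes. Ccnd2 was at 15.3, 19.3, 22.3 and 27.0 TPM in KO astrocytes, against 20.8, 18.1, 19.5, 17.9 and 30.6 TPM in control astrocytes, with full overlap. Cdkn1a was at 62.4, 32.0, 41.8 and 28.9 TPM in KO astrocytes, against 24.0, 22.7, 9.4, 117.7 and 90.7 TPM in control astrocytes. Control animals 4 and 5 were above all KO astrocytes and the other controls below them, and the difference of 0.14 had an interval of -1.31 to 1.59. Its sign turned in 4 of the 9 fits without 1 library. Stmn1 was at 1306.5, 757.5, 899.6 and 2223.1 TPM in KO astrocytes, against 939.8, 600.5, 1000.2, 904.2 and 841.1 TPM in control astrocytes (0.49, interval -0.15 to 1.13), and KO animals 1 and 4 were above every control.

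The 13 genes below the filter in astrocytes (Mcm5, Ccnb1, Cdk1, Aurkb, Bub1, Birc5, Cenpe, Cenpf, Kif23, Prc1, Tpx2, Mki67 and Top2a) are given by their values. Cdk1 was at 0.9, 0.8, 1.2 and 1.7 TPM in KO astrocytes, against 0.0, 0.0, 0.4, 0.0 and 0.6 TPM in control astrocytes. Top2a was at 1.3, 0.4, 0.6 and 1.1 TPM in KO astrocytes and 0.0 to 0.3 TPM in control astrocytes. With Ccnb2 these were the 3 of the 42 genes whose KO values all lay above the controls, against 2.94% of the genes tested, though Cdk1 and Top2a were not among those tested. Mki67 reached at most 0.2 TPM in KO and in control astrocytes. RNA of other cell types was present in the astrocyte sorts. The 9 oligodendrocyte markers summed to 5928.1 to 14868.1 TPM in KO and 3887.4 to 5904.8 TPM in control astrocytes, without overlap. The other sums given here overlapped between genotypes. The 9 mural and fibroblast-like markers summed to 766.0 to 9649.2 TPM in KO and 206.2 to 3219.8 TPM in control astrocytes. The 8 oligodendrocyte precursor markers summed to 349.1 to 736.4 TPM in KO and 345.9 to 459.9 TPM in control astrocytes. Endothelial markers summed to 35.7 to 455.3 TPM in KO and 30.9 to 139.7 TPM in control astrocytes, and markers of border-associated macrophages to 7.1 to 100.9 TPM in KO and 3.7 to 14.1 TPM in control astrocytes, of which KO animal 1 was highest. The 11 microglial markers summed to 266.1 to 491.3 TPM in KO and 330.4 to 386.4 TPM in control astrocytes. The 8 neuron markers summed to 52.1 to 133.1 TPM in KO and 26.9 to 62.8 TPM in control astrocytes. The part of these cell types in the values of the cell cycle genes was not tested. The 8 neural progenitor markers summed to 54.4 to 77.4 TPM in KO and 53.2 to 73.4 TPM in control astrocytes.

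None of the 5 related lists had a gene past the threshold in KO astrocytes, among 18, 32, 16, 7 and 15 tested genes. At an unadjusted p, the smallest were those of the origin factor genes Gins3 (0.65, limma adjusted p = 0.291) and Gins4 (0.28, 0.374), the mitotic motor gene Kif18a (1.24, 0.329) and Smc4 (0.53, 0.353), and the kinase gene Cdk6 (0.87, 0.392) and p27 gene Cdkn1b (0.25, 0.475). For the p53 targets they were those of Phlda3 (1.02, 0.312) and the ribonucleotide reductase gene Rrm2b (0.56, 0.336), and for DREAM and MuvB those of Rbbp4 (0.21, 0.407) and the MuvB subunit gene Lin9 (0.36, 0.531). Phlda3 was at 32.9 ± 13.7 TPM in KO astrocytes (SD, n = 4) and 15.8 ± 5.98 TPM in control astrocytes (SD, n = 5).

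The difference between the KO effect in microglia and the KO effect in astrocytes was tested by itself over all 17 libraries. It was above 0 past the threshold for 10 of the 42 genes and below 0 for none, where 6.63% of 17087 genes passed above 0 and 8.87% below. Ccnd2 had the largest value at 3.06 (SE 0.36, limma adjusted p = 1.3e-05), followed by Cenpa at 2.25 (SE 0.35, adjusted p = 0.000243), Birc5 at 1.54 (0.0365), Nusap1 at 1.49 (0.0122), Kif23 at 1.34 (0.0244) and Bub1 at 1.22 (0.00408). Tk1 (1.13, 0.0234), Hmgb2 (1.11, 0.0134), Prc1 (1.04, 0.0249) and Mki67 (0.62, 0.0359) also passed. The calls of Ccnd2, Cenpa, Bub1 and Hmgb2 held in every alternative that tested them. Each kind of control alone was not among these alternatives. With 1 library left out, the calls of Tk1 and Kif23 ended without KO microglia 4 or control microglia 4 (adjusted p up to 0.0544 and 0.0576), that of Prc1 without KO microglia 1, 2 or 4 (up to 0.0577), that of Mki67 without control microglia 1, 2 or 4, KO astrocytes 1 or 2 or control astrocytes 5 (up to 0.0751), and that of Birc5 without KO microglia 1, 2 or 4, control microglia 4 or 5, KO astrocytes 2 or 4 or control astrocytes 4 (up to 0.0816). Bub1 and Mki67 reached 1 TPM in KO microglia alone and so entered the test through the group where they were high; 8 of the other 40 genes passed. The count was 5 or 6 without KO microglia 1, 2 or 4 or control microglia 4. With each mouse as a block, since both cell types came from the same mice, 7 genes passed: Birc5 (0.120), Kif23 (0.0508), Prc1 (0.0744) and Mki67 (0.109) did not, and Cdkn1a did (2.36, 0.0354). Without the block, a difference between cell types was not shown for the other 32 genes: that of Cdkn1a had an interval of 0.30 to 3.50 (adjusted p = 0.105), and that of Mcm7, the most negative, was -0.63 with an interval of -1.12 to -0.15 (adjusted p = 0.0759), and it passed without control astrocytes 5.

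In control animals the cell types differed in which of these genes they used. Of 34 tested genes 17 were higher and 5 lower in control microglia than in control astrocytes, where 26.2% of 15332 genes were higher and 39.5% lower. Mcm5, Cdk1, Aurkb and Top2a reached 1 TPM in control microglia alone; of the other 30, 13 were higher and 5 lower. The D cyclins went opposite ways: Ccnd1 was at 64.4, 53.1, 42.8 and 98.4 TPM in control microglia, against 4.5, 2.7, 5.4, 5.9 and 9.2 TPM in control astrocytes (log2 difference, microglia minus astrocytes, 3.34, SE 0.31, limma adjusted p = 4.0e-06), and Ccnd2, with the values given above, had a difference of -3.53 (SE 0.27, adjusted p = 9.0e-07). Mcm3 was at 101.3 to 151.7 TPM in control microglia and 12.4 to 20.3 TPM in control astrocytes (2.86), and Cdk1 at 5.4 to 13.7 TPM in control microglia and 0.0 to 0.6 TPM in control astrocytes (2.93). The genes lower in control microglia were Ccnd2, Stmn1 (-2.50), Ccne1 (-1.83), Rrm2 (-1.20) and Kif20a (-0.51). Kif20a (adjusted p = 0.0304) did not pass without control microglia 1 or 2 or control astrocytes 2, 3, 4 or 5 (up to 0.0860). Without control microglia 4 or 5, 11 genes were higher: Mcm5, Ccnb2, Cdk1, Aurkb and Top2a were then below the filter, and Cenpa did not pass (adjusted p = 0.0611 and 0.102). With quantile normalization, 23 of the 34 were higher and 4 lower; the median difference of all genes was then 0.11, against -0.19 without it, and over all genes 5534 were higher and 4850 lower, against 4016 and 6062.

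In KO animals 32 of the 42 genes were higher and 1, Stmn1, lower in microglia than in astrocytes, where 26.4% of 15365 genes were higher and 42.9% lower. Bub1, Cenpe, Cenpf, Kif23 and Mki67 reached 1 TPM in KO microglia alone; of the other 37, 27 were higher and 1 lower. Stmn1 differed by -1.86 (SE 0.30, limma adjusted p = 0.000388). Ccnd2, at 10.8 to 17.3 TPM in KO microglia and 15.3 to 27.0 TPM in KO astrocytes, no longer passed (-0.47, adjusted p = 0.0653), except without KO astrocytes 1. The largest difference was that of Ccnb2 (3.50, SE 0.22, adjusted p = 4.7e-07), followed by Cdk1 (3.31), Ccnd1 (3.31), Ube2c (3.01) and Cenpa (3.00). Cdkn1a, which did not pass between the cell types of control animals (-0.59, interval -2.01 to 0.82), was 1.31 higher in KO microglia than in KO astrocytes (SE 0.22, adjusted p = 0.000525). With quantile normalization 36 of the 42 were higher and 1 lower; over all genes 5909 were then higher and 5121 lower, against 4058 and 6599 without it.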

How the data were processed

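The authors deposited TPM values, 1 file per library with 1 decimal, already scaled within each library. Per the labels' protocols, reads were paired at 61 bp, and per the submitters' processing notes the tools included featureCounts 1.6.2, STAR 2.6.1e, cutadapt 1.9.1 and Trim Galore 0.4.2, with the build mm10; their roles, the annotation and the strand setting are not given in the sources used here, so overlapping and antisense genes and close paralogs are uncertain. The files keep no read depth.

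Of 18 samples 17 were used; 1, whose labels name different cell types, was left out. TPM was transformed to log2(TPM + 1) and tested with limma 3.58.1 (R 4.3.3, variance trend, genes at 1 TPM or above in 4 or more libraries, Benjamini-Hochberg over all genes, two-sided). Each fit was tested on simulated data. Alternatives were quantile normalization, median-of-ratios scaling, other pseudocounts (0.1 and 5 TPM), and a stricter filter (5 TPM) or none. A replicate block and each library left out were others. Each kind of control alone was a further alternative, only for KO against control within a cell type. Promoter windows were RefSeq's (GRCm38.p6); motif words were counted in Python 3.11.15. Microglia and astrocytes of the same mouse share its number in the labels. Their deviations correlated at 0.089 to 0.219 in controls and 0.018 to 0.132 in KO animals. The genotypes do not share mice. The 42 genes, the related lists and the markers were chosen with earlier results of these data known. All 42 are described; the named genes of a related list are the 4 past the threshold whose p was smallest, or, where none passed, the 2 leading by p. Of the list of 45 other mitosis genes, 2 (Sgo1 and Sgo2a) were not found under these symbols.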

Additional observations from a re-analysis of the deposited data

Results flagged for a closer look

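In 133 sets of a gene and a group with a mean of at least 1 TPM, 5 single libraries stood apart from the rest of their group by Dixon's test; chance flags about 1 in 20 such sets. Gmnn was at 15.1 TPM in control microglia 2, against 5.1 to 6.8 TPM in the other 3. Rrm2 was at 19.9 TPM in KO astrocytes 3, against 29.1 to 30.2 TPM in the others. In KO astrocytes 2, Bub1b was at 0.5 TPM (1.6 to 1.8 in the others) and Ube2c at 0.1 TPM (3.7 to 4.4 in the others), and that library had the lowest value of its group in 23 of the 42 genes. Ccnd2 was at 30.6 TPM in control astrocytes 5, against 17.9 to 20.8 TPM in the others.

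The KO effect differed between microglia and astrocytes by limma's test of the difference itself for 10 genes, with log2 values of 3.06 for Ccnd2, 2.25 for Cenpa, 1.54 for Birc5, 1.49 for Nusap1, 1.34 for Kif23, 1.22 for Bub1, 1.13 for Tk1, 1.11 for Hmgb2, 1.04 for Prc1 and 0.62 for Mki67. These values are from the fit without a block; with each mouse as a block Birc5 (adjusted p = 0.120), Kif23 (0.0508), Prc1 (0.0744) and Mki67 (0.109) did not pass, and Cdkn1a did (2.36, 0.0354).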

How the results depend on the processing

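The count of cell cycle genes that rose in KO microglia was 31, and lay between 21 and 30 with 1 library left out and between 21 and 32 under the other alternatives apart from the replicate block, with 0 lower in each. With the replicate block it was 20, with 2079 genes called in all against 3711. That block joins KO and control mice of the same number, which are different mice numbered within each genotype. Their deviations correlated at 0.003 to 0.023 in microglia and -0.092 to 0.185 in astrocytes. Correlations this small cannot decide whether mice of the same number share more than the number. E2f3 did not pass with that block or against control animals 1 and 2 alone. Tyms turned to -0.020 against control animals 4 and 5 alone. In astrocytes 0 cell cycle genes passed under any alternative; over all genes, 1 passed, 3 with no filter, 3 against control animals 3, 4 and 5 alone, 0 against animals 1 and 2 alone, 0 with the replicate block and 0 to 5 with 1 library left out. The difference of Cdkn1a there, 0.14, was -0.26 against control animals 3, 4 and 5 and ran between -0.32 and 0.56 with 1 library left out. The 10 genes whose KO effect was larger in microglia became 4 at a pseudocount of 0.1 TPM, 16 at 5 TPM, 5 with a filter at 5 TPM and 5 to 11 with 1 library left out, and the 0 with a smaller effect became at most 1; with the replicate block there were 7. Between control cell types the 17 higher genes became 7 with a filter at 5 TPM, which tested 18, and 11 to 18 with 1 library left out, where fewer could be tested; with the block of shared mice there were 16. Between KO cell types the genes higher numbered 25 to 32 and those lower 1 to 2 with 1 library left out, and 31 and 1 with the block. The 42 genes' values near 1 TPM are limited by the single decimal of the files, and the unknown depth allows no counting error.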
